A study of Mus musculus with 8 samples.

Results

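Ralgps2 and Angptl1 are neighbours on mouse chromosome 1, and in RefSeq (assembly GRCm38.p6) the whole of Angptl1 lies within the span of Ralgps2, on the other strand. They were described here in mouse pro-B cells, early B-lineage precursors in which the heavy chain locus is being rearranged. All probesets whose platform annotation names only Ralgps2 or only Angptl1 were taken, 23 for Ralgps2 and 5 for Angptl1, out of 212097 probesets that name 1 gene. No probeset named either gene together with another (0 of 241576). The pair was chosen by measured values, namely lower levels of both genes in cultured cells with Setdb1 deleted, so their values in culture are given as a description with no test. The marrow arrays are not part of that comparison, and deletion in bone marrow was tested. The spread used in that test was pooled over all groups, however, so it includes the culture arrays that chose the pair.

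RNA was measured on 8 Affymetrix arrays, 2 in each of 4 groups. Bone marrow cells carried no Bcl2 transgene and were either Setdb1 C/C, with a floxed and intact gene (control), or Setdb1 Δ/Δ (deleted). Cultured cells carried a Bcl2 transgene, had 4 days in interleukin-7 (IL-7), and were likewise Setdb1 C/C or Setdb1 Δ/Δ. Culture and transgene always went together and cannot be told apart. The label of every sample mentions the culture step, while the series' design text says that the marrow samples came directly from bone marrow. Which Cre made the deletion, the age of the mice and whether animals were pooled are not given in the sources used here. The labels do not state whether the 2 arrays of a group hold RNA of different mice or cultures. The p-values therefore measure the spread between arrays, and that spread may be technical.

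Setdb1 encodes a histone methyltransferase that marks lysine 9 of histone H3 and helps to keep genes and retroviral elements silent. Ralgps2 encodes a guanine nucleotide exchange factor for the small GTPases RalA and RalB. Such a factor loads Ral with GTP, and active Ral acts through effectors such as the exocyst, which tethers secretory vesicles at the plasma membrane. Angptl1 encodes a secreted angiopoietin-like protein with a coiled coil and a fibrinogen-like domain, best known from blood vessels and connective tissue.

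Because the genes overlap, the starts of both are shown. RefSeq gives Ralgps2 a pair of starts on the minus strand and Angptl1 a single start on the plus strand, and windows of 250 bases before to 50 after each start were read (assembly GRCm38.p6). The windows lie at chr1:156939577-156939876 and chr1:156939338-156939637 for Ralgps2, which share 61 bases, and at chr1:156838773-156839072 for Angptl1. Capitals mark matches, on either strand, to the E boxes CAGCTG and CAGGTG, short sequences bound by E proteins, which are transcription factors of early B cells.
Ralgps2, upstream start: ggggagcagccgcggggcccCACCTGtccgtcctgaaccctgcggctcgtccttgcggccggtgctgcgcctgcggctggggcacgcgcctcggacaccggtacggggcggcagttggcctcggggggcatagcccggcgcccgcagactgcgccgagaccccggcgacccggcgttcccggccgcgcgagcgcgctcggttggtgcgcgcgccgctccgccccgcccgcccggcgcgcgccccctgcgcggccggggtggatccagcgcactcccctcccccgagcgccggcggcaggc
Ralgps2, downstream start: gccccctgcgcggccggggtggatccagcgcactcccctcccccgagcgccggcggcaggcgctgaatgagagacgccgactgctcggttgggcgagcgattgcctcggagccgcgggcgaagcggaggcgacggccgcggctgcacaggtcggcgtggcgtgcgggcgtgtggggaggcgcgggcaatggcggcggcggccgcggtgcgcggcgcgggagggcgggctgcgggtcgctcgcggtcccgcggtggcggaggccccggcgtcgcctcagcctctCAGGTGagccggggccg
Angptl1: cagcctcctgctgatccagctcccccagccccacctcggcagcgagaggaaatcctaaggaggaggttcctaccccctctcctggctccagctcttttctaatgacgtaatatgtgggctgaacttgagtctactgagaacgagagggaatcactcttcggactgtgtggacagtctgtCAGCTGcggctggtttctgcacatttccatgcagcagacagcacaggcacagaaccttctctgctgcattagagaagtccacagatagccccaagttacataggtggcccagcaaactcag

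The promoters differed in base composition. The Ralgps2 windows held 81.7% and 80.0% G or C, with 51 and 52 CG dinucleotides. More CG than in the upstream window was found in few of the 32851 RefSeq promoter windows of this length, since 99.3% of them held fewer. The Angptl1 window held 54.3% G or C and 6 CG dinucleotides, close to the medians of 52.7% and 7 over all windows. Each Ralgps2 window held 1 match to CAGGTG, which 20.2% of all windows hold, and the Angptl1 window held 1 match to CAGCTG, which 16.3% hold. The Ikaros core TGGGAA (25.6% of windows) and the TATA box TATAAA (13.6%) had no match in these 3 windows. The ETS core GGAA, in 96.0% of windows, matched once in the upstream Ralgps2 window, not in the downstream one, and at 4 places in the Angptl1 window. GGAA lies within TGGGAA, and no other of these motifs contains another. A match is a stretch of letters, and nothing here tests whether a factor binds it.

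The arrays themselves were checked first. Setdb1 lay between 6.45 and 7.02 (log2) in all 8 arrays and its change with limma was -0.21 (SE 0.21, adjusted p = 0.768) in marrow against 0.18 (SE 0.21, adjusted p = 0.777) in cultured cells. The part of Setdb1 that was deleted is not given in the sources used here, so these values do not check the labels. Over 16050 genes the SD of the difference between the 2 arrays of a group was 0.54 in bone marrow controls, 0.26 in deleted marrow, 0.39 in control culture and 0.42 in deleted culture. The 11 pro-B markers read by single-gene probesets had means between 9.03 and 10.05 in the arrays, and none lay under 4.03, the value below which a gene was called dim, in every array. The 11 neutrophil and monocyte markers had means between 8.99 and 9.70 in the marrow arrays, which average members that went opposite ways.

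Marrow control 1 stood apart in several of these markers. Emr1 (now Adgre1), a macrophage surface protein, read 10.03 in marrow control 1 against 6.65 in control 2, and 5.93 and 5.45 in deleted marrow. Vcam1, an adhesion molecule of stroma that some macrophages also carry, read 12.04 in control 1 and between 6.36 and 6.41 in the other marrow arrays. Cd68 (11.07 against 8.26) and Csf1r (10.18 against 7.86) were likewise higher in control 1 than in control 2. The granule genes of myeloid precursors went the other way, with Mpo at 9.60 against 11.19, Ela2 (now Elane) at 7.78 against 9.52 and Ctsg at 6.82 against 8.87. The same control 1 was the lower of the marrow controls in Ralgps2 and Angptl1, and the part of these other cells in that gap was not tested.

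The myeloid markers also varied between the culture arrays. The means of the 11 stood at 5.12 and 7.60 in culture controls 1 and 2, and at 6.55 and 8.27 in deleted culture 1 and 2.

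Ralgps2 was highest in control culture and lowest with Setdb1 deleted. A gene's value is the median polish of its probesets, on the log2 scale. For Ralgps2 it was 7.50 and 8.35 in bone marrow controls, 6.46 and 6.83 in deleted marrow, 8.96 and 8.82 in control culture, and 6.53 and 5.88 in deleted culture. In each condition both deleted arrays lay under both controls. The group means ran from 8.89 ± 0.10 (SD, n = 2) in control culture over 7.93 ± 0.60 in marrow controls and 6.65 ± 0.26 in deleted marrow to 6.21 ± 0.46 in deleted culture. The last pair overlapped, and the other neighbours in this order did not.

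Angptl1 followed the same order of groups. It read 6.40 and 7.72 in bone marrow controls, 5.57 and 5.45 in deleted marrow, 7.92 and 7.94 in control culture, and 5.15 and 4.46 in deleted culture. The means were 7.93 ± 0.01 in control culture, 7.06 ± 0.93 in marrow controls, 5.51 ± 0.08 in deleted marrow and 4.81 ± 0.49 in deleted culture (SD, n = 2). No neighbouring groups overlapped, although the marrow controls lay 1.32 apart. Levels of the 2 genes come from different probes and were not set against each other.

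**Figure D1:**
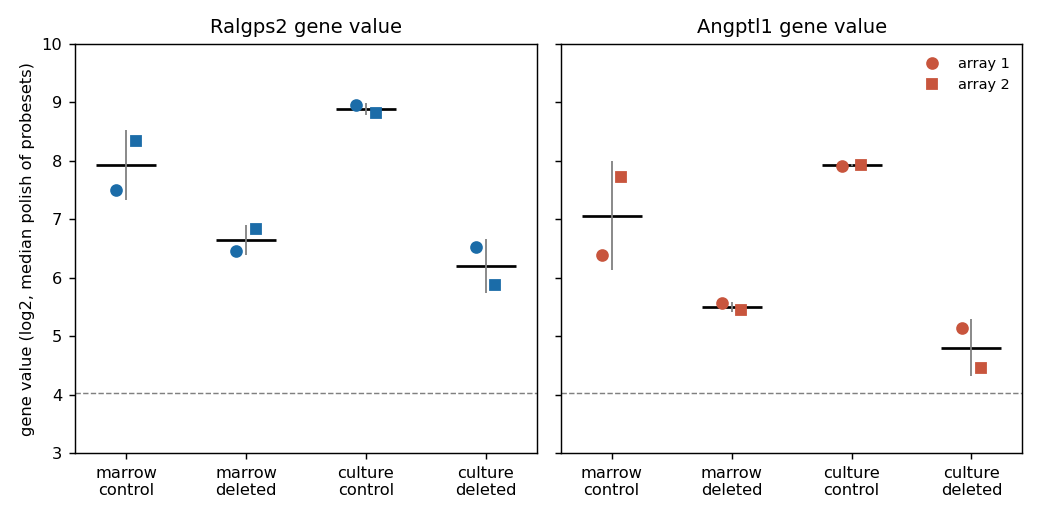
Gene values of Ralgps2 (left) and Angptl1 (right) on the log2 scale by group; points are arrays, black lines are group means, grey bars are 1 SD (n = 2), and the dashed line at 4.03 marks dim genes. Deleted arrays lie under the controls of their condition for both genes, and the marrow controls are 0.85 (Ralgps2) and 1.32 (Angptl1) apart.

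With Setdb1 deleted in bone marrow, both genes read lower and neither passed the threshold over all genes. The change of Ralgps2 was -1.28 (log2, SE 0.32, with n = 2 in each group), 2.42-fold lower with a 95% interval of 1.44 to 4.07. Its adjusted p was 0.199 with limma (0.00461 unadjusted). The change of Angptl1 was -1.55 (SE 0.41), 2.94-fold lower with an interval of 1.53 to 5.66, and its adjusted p was 0.215 (0.0056 unadjusted). Ordered by change from the most lowered gene, Angptl1 held place 189 and Ralgps2 place 281 of 16050. In this comparison 0.0935% of genes passed as lower. The SEs, intervals and p-values above use a spread pooled with the culture arrays, which chose the pair. With only the 4 marrow arrays, the adjusted p with limma was 0.294 for Ralgps2 (SE 0.32) and 0.321 for Angptl1 (SE 0.44). In such bulk samples, fewer cells that express a gene and less RNA per cell cannot be told apart.

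The marrow values rested on single control arrays. Without marrow control 1 the change of Angptl1 was -2.21 (SE 0.28) and passed with an adjusted p = 0.0378, and without control 2 it was -0.89 (SE 0.28, adjusted p = 0.178). Over the 8 fits that each leave out 1 array its adjusted p lay between 0.0378 and 0.832, and over 9 other settings between 0.13 and 0.509. With the median of the probesets the change of Angptl1 was -0.87. For Ralgps2 the change was -1.70 (SE 0.30, adjusted p = 0.102) without control 1 and -0.85 (SE 0.30, adjusted p = 0.235) without control 2.

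In culture, the comparison that picked the pair, the change was -2.68 (SE 0.32) for Ralgps2 and -3.12 (SE 0.41) for Angptl1, or 6.43-fold and 8.70-fold lower. In that comparison 0.71% of genes passed as lower, a share given as background only. The change in culture minus that in marrow was -1.41 for Ralgps2 and -1.57 for Angptl1. These differences were not tested, since the culture values chose the genes. Part of each gap was a higher control: control culture stood above marrow controls by 0.96 for Ralgps2 and by 0.87 for Angptl1. Deleted culture stood under deleted marrow, with differences of -0.44 and -0.70.

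Nearly all probesets of Ralgps2 shared its pattern. Their marrow control means ran from 5.13 to 10.43. In bone marrow the means of all 23 were lower with deletion, by a change between -1.93 and -0.37 with a median of -1.36, and 22 had both deleted arrays under both controls. That was so for 17.6% of all 212097 probesets. With limma over the 180168 probesets above the dim value, 0 of the 23 passed (15 at an unadjusted p under 0.05), and no probeset of any gene did (0 of 180168, 13500 unadjusted). In culture, 22 of 23 had deleted arrays under controls, with changes between -4.17 and -0.43 and a median of -2.71. Over all probesets that share was 19.3%, given as background only because the culture values picked the gene. The probesets of a gene share the RNA of their array and are not replicates of one another.

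The members of this set differed in size of change. Probeset 10359221, among the brightest, read 9.99 and 10.79 in marrow controls, 8.67 and 9.02 in deleted marrow, 11.07 and 10.99 in control culture, and 8.72 and 8.06 in deleted culture. Probeset 10359218 had the lowest change in culture, from 8.89 and 8.77 in controls to 5.22 and 4.10 in deleted cells. Probeset 10359204 moved least there, from 6.65 and 6.55 to 6.07 and 6.28, and by -0.53 in marrow. Probeset 10359224 had the smallest change in marrow, from 6.19 and 7.25 to 6.15 and 6.54, and was the 1 of 23 whose marrow groups overlapped. The 11 brighter probesets had a median marrow change of -1.40 and the other 12 of -1.33. The change in culture was the larger in 19 of the 23, a count favoured by the choice of the gene on its culture values.

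**Figure D2:**
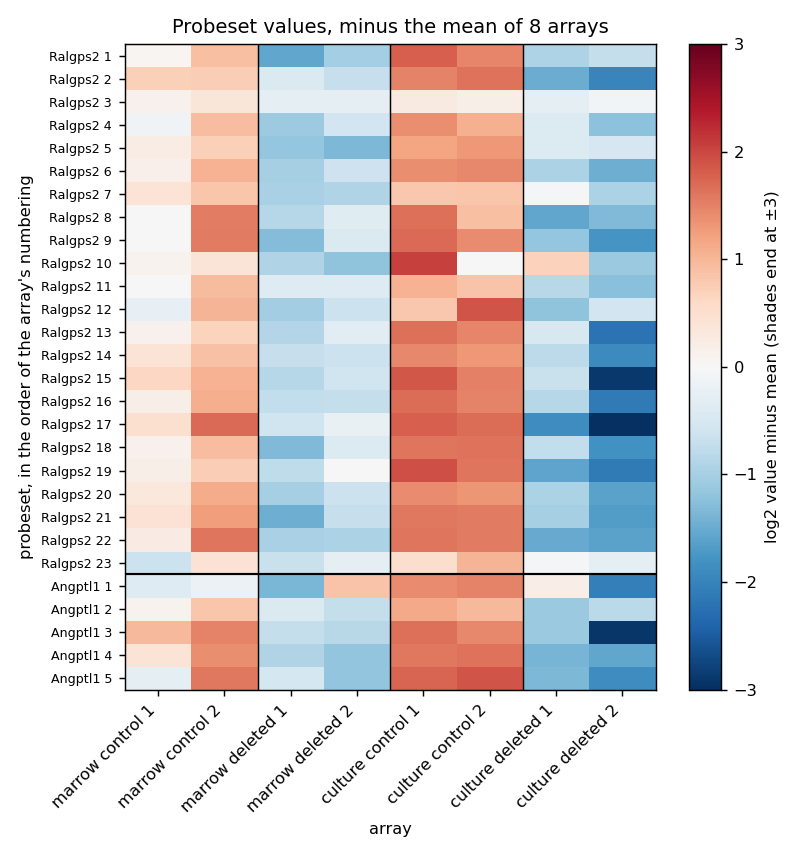
Log2 value of each of the 28 probesets (rows, numbered within their gene as on the array) in each array (columns), minus the mean of that probeset over 8 arrays; red is higher and blue lower, with shades ending at ±3. Control columns are mostly red and deleted columns mostly blue for 23 Ralgps2 and 5 Angptl1 probesets, with Ralgps2 3 (10359204) pale throughout.

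The 5 probesets of Angptl1 gave the same direction in culture and a less even one in marrow. In marrow 4 of 5 had both deleted arrays under both controls, with changes between -2.00 and 0.03 and a median of -1.51. The brightest, 10350844, read 8.30 and 9.29 in marrow controls, 6.99 and 6.71 in deleted marrow, 9.47 and 9.50 in control culture, and 6.49 and 6.33 in deleted culture. The exception was 10350841, at 4.68 and 4.87 in marrow controls and 3.69 and 5.92 in deleted marrow, with deleted arrays on both sides of the controls. With limma 0 of 5 passed in marrow (4 at an unadjusted p under 0.05). Of the 28 probesets of both genes, 19 had such an unadjusted p with all arrays, 9 without marrow control 2 and 10 without deleted marrow 1, and 0 passed in each of these fits. In culture 5 of 5 had deleted arrays under controls, with changes between -3.57 and -2.01. Of these probesets 3 lay under 4.03 in at least 1 array, so the sizes of their changes are uncertain, as were those of 1 Ralgps2 probeset.

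Deleted arrays lay under controls in both conditions for 21 of 23 Ralgps2 probesets and 4 of 5 Angptl1 probesets. Over all probesets that share was 4.64%, and culture had picked the genes. Control culture stood above marrow controls, with no overlap, in 14 of 23 and 4 of 5, where 19% of all probesets did so. The control culture arrays are part of the comparison that picked the genes, so that share too is background only.

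**Figure D3:**
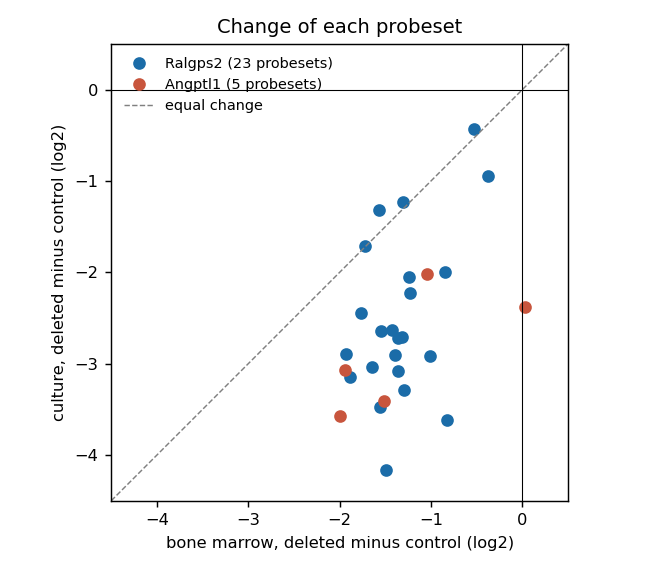
Change with Setdb1 deletion (deleted minus control, log2) of each probeset in bone marrow (horizontal) and culture (vertical), for Ralgps2 (23, blue) and Angptl1 (5, red); the dashed line marks equal change. Most points lie under the line, with medians of -1.36 and -2.71 for Ralgps2 and of -1.51 and -3.07 for Angptl1. The genes were chosen on their culture values, which favours this position.

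The arrays of a group differed in the same direction for both genes where they differed most. Marrow control 2 lay above control 1 by 0.85 for Ralgps2 and 1.32 for Angptl1. In deleted culture, array 2 minus array 1 was -0.66 and -0.69. In deleted marrow the differences were 0.37 and -0.12, and in control culture -0.14 and 0.02. Whether the RNA of 1 of these overlapping genes adds to the probesets of the other was not tested, since the strand and the position of the probes are not given in the sources used here.

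Genes of later B-cell stages read lower with deletion as well. The 17 markers of pre-B and mature B cells had means of 7.62 and 8.51 in marrow controls, 5.90 and 5.94 in deleted marrow, 8.49 and 8.80 in control culture, and 6.90 and 6.55 in deleted culture. The list mean of marrow control 2 stood above that of control 1 by 0.89. Cd74 (11.08 in control 1 against 10.79 in control 2), H2-Aa (10.59 against 10.27), H2-Ab1 (10.53 against 9.88) and H2-Eb1 (9.37 against 8.92) went the other way. All other markers of this list were higher in control 2. In marrow 17 of 17 read lower, with a median change of -2.04 against 0.04 over all genes, and 4 fell with limma, against 0.0935% of all genes (Cd74, H2-Aa, H2-Eb1 and Bank1). In culture 16 of 17 read lower, with a median of -1.65 against 0.01, and 7 fell, against 0.71% of all genes. The limma counts rested on single arrays: with 1 array left out, the count in marrow ran from 0 (without deleted marrow 1 or 2, 12 unadjusted in each) to 8 (without marrow control 2). That in culture ran from 0 (without control culture 1 or 2 or deleted culture 2, 13 to 15 unadjusted) to 12 (without either marrow control). None of the 17 lay under 4.03 in all arrays. Their part in the values of Ralgps2 and Angptl1 was not tested.

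The other marker lists gave smaller or mixed changes. The pro-B list had a mean change of 0.41 in marrow and -0.30 in culture, with 2 of 11 and 7 of 11 lower. In culture this mean joined large opposite changes, with -2.92 for Rag1 (SE 0.53, adjusted p = 0.0504 with limma) and -1.08 for Rag2. Dntt (2.17, SE 0.83, adjusted p = 0.278) and Igll1 (1.18, SE 0.23, adjusted p = 0.062) read higher there, and neither passed with limma. The culture controls of Dntt read 6.06 and 8.81. The neutrophil and monocyte list had mean changes of -0.47 and 1.05, with 8 of 11 and 0 of 11 lower. Its marrow mean joined opposite changes, with -2.65 for Emr1, -2.50 for Cd68 and -2.20 for Csf1r, where marrow control 1 stood high, and 2.01 for Ela2 and 1.54 for Mpo. The 12 stromal and endothelial markers, of tissues in which Angptl1 is best known, had means between 5.22 and 6.10 in the arrays and had mean changes of 0.14 and 0.47, with 5 and 3 lower. Vcam1 had the lowest marrow change among them, -2.82 (SE 1.49), and its deleted arrays lay on both sides of control 2. The 5 stromal markers with an unadjusted limma p under 0.05 in marrow all read higher, among them Col1a2 (1.36), Col1a1 (1.17) and Sparc (1.36). The 8 T cell markers had mean changes of 0.12 and 0.82, with 6 and 2 lower. These means joined unlike members, with Thy1 at 2.43 and 3.29 and Lat at 0.80 and 1.74. Cd4 had a marrow change of -1.37, where control 1 read 7.68 and control 2 read 4.86. The 4 erythroid and megakaryocyte markers had mean changes of -0.38 and 0.68, with 3 and 0 lower. With limma 0 of these 46 passed in marrow (14 unadjusted), and in culture 2 rose (Thy1 and Sparc), where 0.735% of all genes rose.

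The array genes on either side of the pair had smaller changes, a gap favoured by the choice of the pair on its culture values. Of the 5 nearest on each side in the RefSeq order, 9 were tested and 1 was dim. With limma 0 of 9 passed in marrow (0 at an unadjusted p under 0.05) and 0 in culture (1 unadjusted), where 0.131% and 1.45% of all genes passed, so a count of 0 sets these 9 apart from no other genes. Their changes ran from -0.52 to 0.34 in marrow and from -0.07 to 0.58 in culture. Fam20b, a kinase that phosphorylates xylose in proteoglycans and the nearest before the pair, read 6.82 and 6.69 in marrow controls and 6.86 and 6.65 in deleted marrow, a change of -0.0039 (SE 0.15, adjusted p = 0.997), and its culture change was 0.32 (SE 0.15, adjusted p = 0.388). On the other side 1700057K13Rik, now Tex35, lay under 4.03 in all arrays, between 3.21 and 3.60. Rasal2, a GTPase-activating protein for Ras and the next after it, had a change of -0.09 (SE 0.21, adjusted p = 0.919) and 0.07 (SE 0.21, adjusted p = 0.932). Another RefSeq gene, the long noncoding RNA 4930439D14Rik, overlaps the start of Ralgps2 and had no probeset named for it alone.

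**Figure D4:**
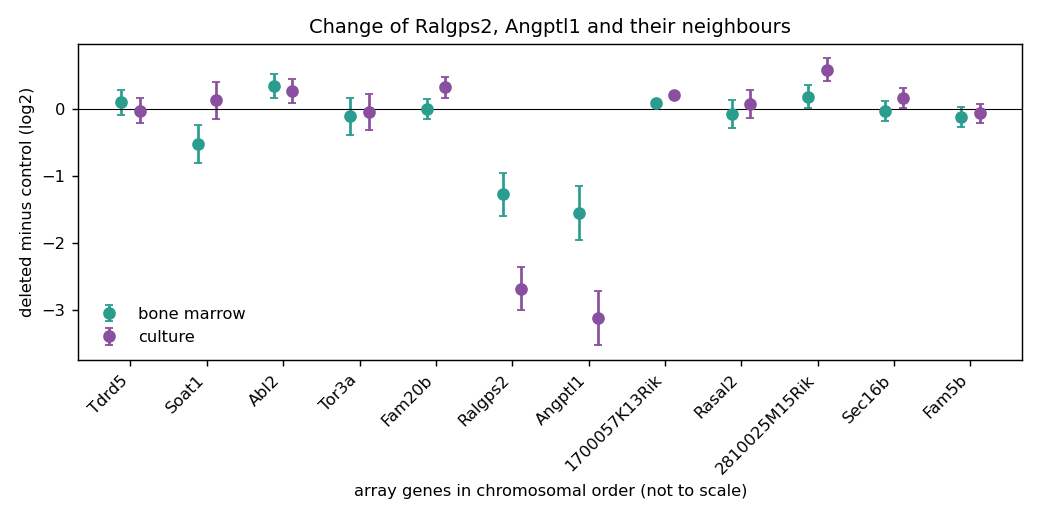
Change with deletion (deleted minus control, log2, bars are 1 SE of the moderated fit, none for the dim 1700057K13Rik) in bone marrow and culture for the array genes around the pair, in chromosomal order but not to scale. Ralgps2 (-1.28 and -2.68) and Angptl1 (-1.55 and -3.12) stand below neighbours that range from -0.52 to 0.58. The pair was chosen on its culture values, which favours this position.

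The other genes of the Ral pathway did not pass the test. With limma 0 of 21 tested genes passed in marrow (3 at an unadjusted p under 0.05) and 0 in culture (4 unadjusted), against 0.131% and 1.45% of all genes. With so few genes passing, a count of 0 says nothing particular to the pathway. Of all 16050 genes, 1899 in marrow and 2408 in culture had such an unadjusted p. The median change of the 21 was -0.10 in marrow and -0.18 in culture, beside 0.04 and 0.01 over all genes. Of the 5 other exchange factors, which had negative changes throughout, Rgl1 and Ralgds owed that direction in marrow to control 1 alone. Rgl1 read 9.02 and 6.89 in marrow controls and 7.26 and 7.22 in deleted marrow, and Ralgds read 6.35 and 5.11 in marrow controls and 5.47 and 5.52 in deleted marrow. In both genes the deleted arrays lay under control 1 and above control 2. Rgl2 owed its direction to control 2 alone, with 6.56 and 6.92 in marrow controls and 6.66 and 6.61 in deleted marrow. Ralgps1, the closest relative of Ralgps2, read -0.51 (SE 0.17, adjusted p = 0.328) in marrow cells and -0.26 (SE 0.17, adjusted p = 0.552) in cultured cells. Rgl3, another of them, had a change of -0.78 (SE 0.24, adjusted p = 0.286) in marrow and of -0.02 (SE 0.24) in culture, and Rgl2 one of -0.44 (SE 0.17, adjusted p = 0.286) in culture. For the GTPases themselves, Rala had a change of -0.09 (SE 0.25) in marrow and 0.19 (SE 0.25) in culture.

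Ralb read 7.48 and 7.22 in marrow controls and 6.64 and 6.72 in deleted marrow, and 6.27 and 6.51 in control culture and 6.84 and 7.25 in deleted culture. It stood lower with deletion in the one condition and higher in the other, with -0.67 (SE 0.19, adjusted p = 0.254) in marrow and 0.66 (SE 0.19, adjusted p = 0.168) in culture. The difference between these changes was 1.33 (SE 0.27) and did not pass over all genes (adjusted p = 0.455 with limma, where 0 of 16050 genes passed and 1216 had an unadjusted p under 0.05). Among the GTPase-activating proteins, which switch Ral off, A230067G21Rik (now Ralgapa2) had a change of -0.52 (SE 0.17, adjusted p = 0.212) in culture and -0.22 (SE 0.17) in marrow, and Garnl1 (now Ralgapa1) of -0.30 (SE 0.13) in culture. The 11 exocyst subunits and effector partners had changes between -0.42 and 0.24 in marrow and between -0.30 and 0.55 in culture. Reps1, an adaptor in endocytosis, was at the top with 0.55 (SE 0.18, adjusted p = 0.215), and Exoc2, a direct Ral target in the exocyst, had a change of -0.18 (SE 0.17) and -0.21 (SE 0.17).

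Among the relatives of Angptl1, 0 of 8 tested genes passed in marrow (0 unadjusted) or in culture (3 unadjusted), where 0.131% and 1.45% of all genes passed. So few genes passed overall that a count of 0 says nothing particular to the family. Angptl7, another secreted member of the family, had the largest culture change, 0.80 (SE 0.25, adjusted p = 0.202), in the direction opposite to Angptl1. Angpt2, a ligand of the receptor Tie2, read 0.37 (SE 0.16, adjusted p = 0.434) in marrow and 0.51 (SE 0.16, adjusted p = 0.205) in culture. Angptl2 had a change of -0.21 (SE 0.22) and 0.54 (SE 0.22, adjusted p = 0.297). Tek, which encodes Tie2, and Tie1 had means between 3.83 and 4.49 in the groups, near the dim value. Angpt1 was dim and was not tested.

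**Figure D5:**
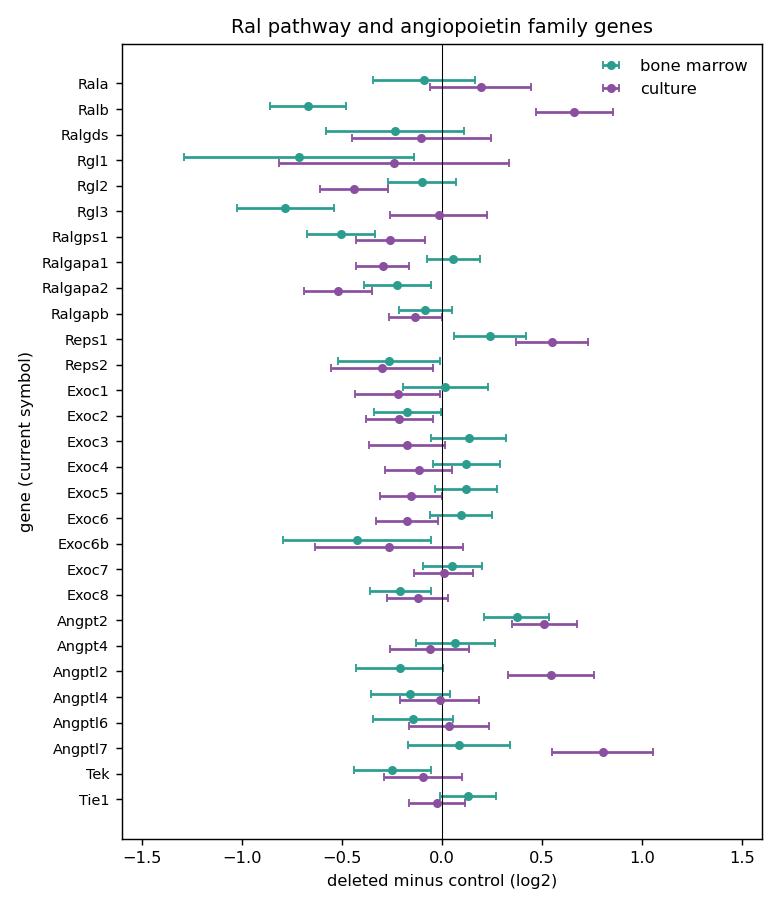
Change with deletion (deleted minus control, log2, bars are 1 SE of the moderated fit) in bone marrow and culture for the 29 tested genes of the Ral pathway and the angiopoietin family, by current symbol. All lie between -0.78 and 0.80, against -1.28 to -3.12 for Ralgps2 and Angptl1, and none passed the threshold (limma, 3 in marrow and 7 in culture at an unadjusted p under 0.05). The pair was chosen on its culture values, which favours this gap.

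Ralgps2 and Angptl1 were each other's nearest genes in their pattern over the 8 arrays. Likeness was the root mean square difference of array values after each gene's mean was subtracted, over 14059 other genes with at least 3 probesets. Between the 2 genes it was 0.27 (log2), against a median of 1.12 from Ralgps2 and 1.31 from Angptl1 to other genes. The next nearest to Ralgps2 were Zfp318 (0.31), Brwd1 (0.34), Il4i1 (0.34) and 5031414D18Rik (0.36). The next nearest to Angptl1 were Btla (0.29), Zfp318 (0.44), Il4i1 (0.46) and Ms4a4c (0.48). Btla read 5.96 and 7.87 in marrow controls and 5.02 and 4.98 in deleted marrow, and 8.17 and 7.52 in control culture and 5.02 and 4.50 in deleted culture. Zfp318 read 7.02 and 7.81, 5.97 and 5.78, 8.83 and 8.24, and 6.31 and 5.90 in the same order. Btla, an inhibitory receptor of lymphocytes, is among the 17 markers of later B-cell stages. The 8 arrays share the contrast that picked the pair, so these distances are a description.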

How the data were processed

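The deposited table holds log2 values of 241576 probesets on 8 arrays, used as deposited. Per the submitters' processing notes, the authors made these log2 values with RMA in Affymetrix Expression Console 1.2.0.20 (background correction, quantile normalisation and probe summary). RMA forces arrays to 1 distribution, so values compare arrays within a probeset, not probesets with each other. Gene names are those of the platform annotation, updated through the RefSeq genes of GRCm38.p6 where stated. Gene values were the median polish of probesets that name 1 gene (20416 genes). Testing took the 16050 genes that exceeded 4.03, the 25th percentile over genes and arrays, in at least 2 arrays. Group means (4) were modelled jointly by limma 3.58.1 (R 4.3.3, with files read by version 1.17.8 of data.table). Tests were two-sided, p-values were adjusted after Benjamini and Hochberg over all features tested, and the threshold was 0.05. The fit holds 4 residual and 3.53 prior degrees of freedom, and was tested on simulated data. The number of arrays limits the precision. The genes named were the pair, listed pathway genes past 0.05 (otherwise the lowest p), 5 array genes on each side and the 5 nearest in pattern. Other listed genes were named after their values were seen. Members, lists and tests were chosen with earlier results of these data known.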

Additional observations from a re-analysis of the deposited data

How the results depend on the processing

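The marrow change of both genes stayed negative in all 17 alternatives; Angptl1 passed 0.05 in 1 of them and Ralgps2 in 0. With each array left out in turn it ran from -1.70 to -0.85 for Ralgps2 and from -2.21 to -0.89 for Angptl1, and in the other 9 settings from -1.33 to -1.27 and from -1.55 to -0.87. The culture change ran from -3.01 to -2.36 for Ralgps2 and from -3.47 to -2.78 for Angptl1 with an array left out, and from -2.85 to -2.50 and from -3.12 to -2.80 in 7 other settings. A fit that leaves 1 array in a group assumes that it varies like the others. The counts of genes called depended on the settings. In marrow 21 passed, against 36 with the mean and 32 with the median of probesets, 49 with array weights, and 0 in limma with only the 4 marrow arrays (1883 at an unadjusted p under 0.05). It ran from 0 (without deleted marrow array 1 or 2, 1131 and 868 unadjusted) to 564 (without marrow control 2). In culture 232 passed, against 91 with the median of probesets and 121 with only probesets above the dim value. It ran from 1 (without control culture 1) to 431 (without marrow control 1). Of all probesets 0 passed in marrow in every setting run, with limma. Replicate numbers were not shown to pair the samples: differences between replicates correlated at 0.05 between the marrow groups and 0.34 between the culture groups, over genes. As a block, the replicate number was 1 term shared by the 4 groups, so it could not fit a pairing in culture alone. With this block in limma, 7 genes passed in marrow and 115 in culture, and the pair had adjusted p = 0.271 and 0.282 in marrow. The cause of these shifts was not tested.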
